A study of Mus musculus with 18 samples.

Results

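Lipochondrocytes of the mouse ear, the cartilage cells that fill with fat, were compared between postnatal day 13 (P13) and postnatal day 8 (P8). Genes entered the comparison if 3 or more of the 6 P8 and P13 libraries had them at 1 FPKM or above, which held for 10111 of the 46983 genes listed. FPKM scale the fragments of a gene by its length and by how many fragments the library yielded. The study sequenced RNA of lipochondrocytes at 5 ages and of inguinal adipocytes of P33 mice with the same transgenes, with 3 libraries in each of 6 groups and 18 in all. Cells of P8, P10 and P13 were isolated in the same way. Ear cartilage of Wnt1-Cre2;TdTomato mice on a C57BL/6 background was dissected, digested with collagenase II, and sorted for bright TdTomato fluorescence. All 3 ages therefore carried the same transgenes, and no group without them was compared. In such mice Cre is driven by Wnt1 regulatory sequence, which is active in the neural crest, so that TdTomato stays on in the descendants of those cells. P21 and P33 cells were instead collected as a buoyant fraction. Here they enter the choice of genes tested and the estimate of the spread, and their levels are not compared.

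Elastic cartilage of the ear has chondrocytes set in a matrix of type II collagen, aggrecan and elastin. A lipochondrocyte holds lipid droplets whose core is triglyceride, made from fatty acids that the cell can synthesize from citrate and acetyl-CoA. Fatty acids are lengthened and desaturated, joined to glycerol by acyltransferases, and stored in droplets coated by perilipins and enlarged by CIDE proteins. Breakdown of the stored fat is opened by the lipase ATGL, which G0s2 inhibits.

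The P8 libraries had 18446349 to 22118887 total reads and the P13 libraries 15049389 to 17798212. Alignment rates were 77.44% to 84.44% at P8 and 82.28% to 84.15% at P13. Of the 10 chondrocyte markers, 9 were members, and their summed level was 17772 to 18876 FPKM at P8 and 22813 to 25959.6 at P13. Matn1, a cartilage matrilin, was the exception at 0.59 to 1.09 FPKM at P8 and 0.19 to 0.31 at P13. The rise of the sum was not shared by all markers. Of the 9 members, 5 were higher and 4 lower at P13, with a median log2 difference of 0.18. By the test described below, 2 rose, Snorc and Col9a1 (22.2% of the 9), and none fell. P8 replicate 3 stood apart from the other P8 libraries. It had the lowest alignment rate and the most genes at 1 FPKM or more (10558), and 327 members were at least 2-fold above both other P8 libraries on the FPKM + 1 scale. In the other 5 libraries that number was 27 to 99. The labels do not say whether libraries numbered 1 to 3 came from separate animals. The p-values therefore measure only the spread between libraries of the same group, pooled over the 6 groups of the series.

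Between P8 and P13, 359 genes rose and 198 fell at an adjusted p under 0.05. Differences are P13 minus P8 on the log2(FPKM + 1) scale, which understates the change of low genes. The share of members called was 5.51%, with 3.55% higher and 1.96% lower at P13. Percentages in brackets after list counts below are shares of the members of that list, to be set beside these. Called rises had a median of 0.85 and called falls a median of -0.79, beside a median of -0.03 over all members. Among the called genes, 137 rose by at least 1 on the log2 scale and 57 fell by as much. The groups did not overlap in 554 of the 557 called genes, and in 2494 of all 10111 members. With 3 libraries against 3, an exact permutation test of a single gene cannot go below 0.1. The calls therefore rest on a spread that is pooled over all 6 groups and that limma shares between genes. In bulk RNA, a fall can come from fewer cells of a type or from less RNA per cell, and these cannot be told apart here. In all, 275 of the 557 calls were kept without each of the 6 libraries in turn, and 192 were also kept in each of 9 other settings. The count was 402 (285 higher, 117 lower) without P8 replicate 3. It was 328 (217 and 111) without P13 replicate 3, 366 (219 and 147) without P8 replicate 1, 384 (237 and 147) without P13 replicate 2, and 419 (305 and 114) without P13 replicate 1. With only the P8 and P13 libraries modelled (the 6-library model), 298 genes were called, and with only the 9 sorted libraries (the 9-library model) 500. When the 6-library model also held the replicate number as a block, 2 were called. Each gene said below to have risen or fallen had P8 and P13 libraries that did not overlap. Coordinates are of GRCm38.

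**Figure D1:**
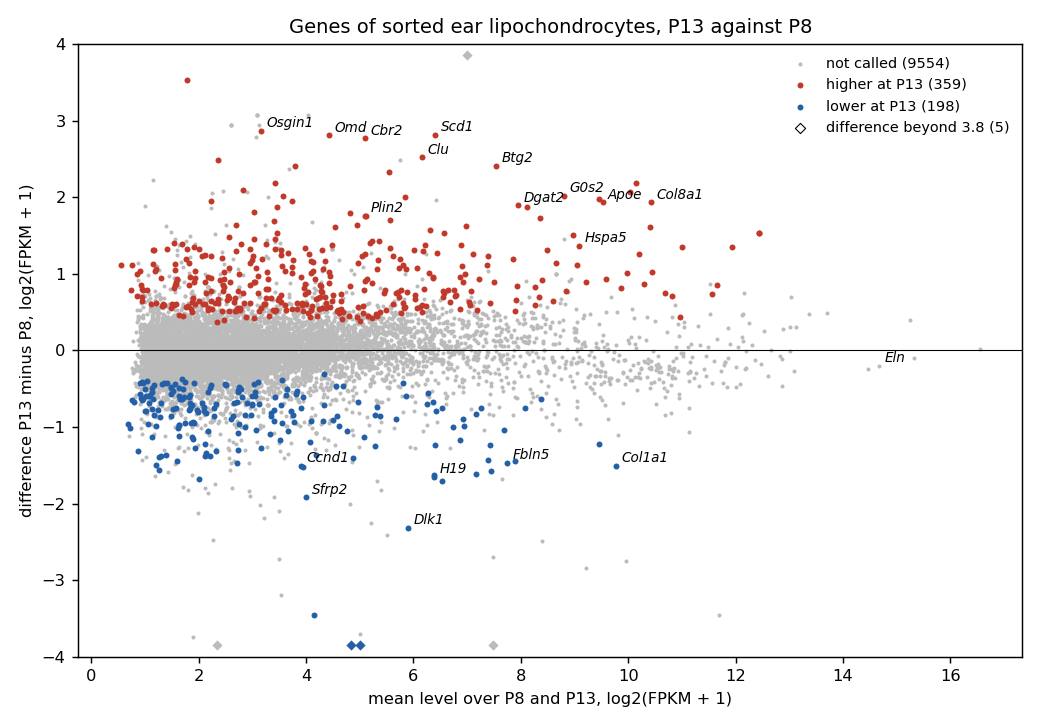
Mean level over P8 and P13 (horizontal axis, log2(FPKM + 1)) against the difference P13 minus P8 (vertical axis, same scale) for the 10111 members. Red points are the 359 genes called higher at P13, blue points the 198 called lower and grey points the rest, and diamonds at the edges mark 5 genes with a difference beyond 3.8. Scd1 lies at 2.81 and Osgin1 at 2.87, and Eln lies at -0.20 at the right.

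The clearest rises in fat metabolism were in single steps of synthesis, esterification and storage. Of the 23 members among 28 listed fatty acid synthesis genes, 5 rose (21.7%) and none fell, with a median difference of 0.29. Scd1 (ENSMUSG00000037071.2, chromosome 19:44394455-44407879) encodes the desaturase that places the double bond of oleic acid. Its level was 26.6, 28.3 and 38.4 FPKM at P8 and 201, 241 and 227 at P13. All P13 libraries lay several times above all P8 libraries, and Scd1 rose by 2.81 (SE 0.27, adjusted p = 1.65e-05). Slc25a1, the mitochondrial citrate carrier that supplies carbon for synthesis, was at 17.1, 21.5 and 21.6 FPKM at P8 and 34.3, 35.5 and 39.7 at P13 and rose by 0.84 (SE 0.13, adjusted p = 0.000995). Fasn, the fatty acid synthase itself, was at 12.9, 12.8 and 19.3 FPKM at P8 and 27.7, 30.5 and 26 at P13. The P13 libraries were all higher, by a smaller margin than for Scd1, and Fasn rose by 0.88 (SE 0.21, adjusted p = 0.0265). Tecr, the last enzyme of fatty acid elongation, rose by 0.63 (SE 0.13, adjusted p = 0.0128), and Mid1ip1, an activator of acetyl-CoA carboxylase, rose by 0.59 (SE 0.12, adjusted p = 0.0105). The Fasn call was lost without P13 replicate 1, 2 or 3 or P8 replicate 1 or 2 (adjusted p up to 0.103), and with no filter, in the 6-library model and at a pseudocount of 5 (adjusted p up to 0.0821). The Tecr call was lost without P13 replicate 2 or 3 or P8 replicate 1 (adjusted p up to 0.0695). The Mid1ip1 call was lost without P13 replicate 3 or P8 replicate 1 (adjusted p up to 0.0657), and in the 6-library model (adjusted p = 0.1). The regulator Srebf1 was at 18.3, 17.2 and 21.7 FPKM at P8 and 23.5, 20.9 and 25.9 at P13, with overlapping groups and a difference of 0.29 (95% confidence interval -0.15 to 0.72, adjusted p = 0.563).

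Of the 13 members among 19 listed triglyceride synthesis genes, 2 rose (15.4%), both acyltransferases, with a list median of 0.09. Dgat2 (ENSMUSG00000030747.4, chromosome 7:99153658-99182719) makes triglyceride from diacylglycerol. It was at 122, 138 and 121 FPKM at P8 and 419.6, 481 and 528 at P13, so the groups were far apart. Dgat2 rose by 1.89 (SE 0.19, adjusted p = 2.2e-05). Mogat1, which makes diacylglycerol from monoacylglycerol, was much lower at 3.25, 2.42 and 4.54 FPKM at P8 and 12.9, 16.8 and 13 at P13 and rose by 1.81 (SE 0.30, adjusted p = 0.00229). The other 11 members of the list were not called.

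The droplet itself showed 2 rises (16.7%) among the 12 members among 19 listed genes. Plin2 (ENSMUSG00000028494.12, chromosome 4:86648386-86670060), the perilipin found on droplets of most cells, was at 17.5, 17.9 and 17.9 FPKM at P8 and 57.9, 59.7 and 70.2 at P13. The 3 P8 libraries were nearly equal and far under P13, and Plin2 rose by 1.76 (SE 0.14, adjusted p = 3.22e-06). Cidea, which promotes transfer of lipid into larger droplets, was at 4.31, 4.68 and 5.85 FPKM at P8 and 18.4, 16.1 and 19.8 at P13 and rose by 1.69 (SE 0.16, adjusted p = 1.98e-05). G0s2 (ENSMUSG00000009633.3, chromosome 1:193272161-193273217), the inhibitor of ATGL, was among the more abundant genes that rose, at 233, 257 and 173 FPKM at P8 and 883, 806 and 988 at P13. It rose by 2.02 (SE 0.17, adjusted p = 6.21e-06), one of 2 calls (18.2%) among the 11 members among 20 listed lipolysis genes. The other was Pnpla8, a mitochondrial and peroxisomal phospholipase, which rose by 0.51 (SE 0.13, adjusted p = 0.0305). The Pnpla8 call was lost without P13 replicate 3 or P8 replicate 1, 2 or 3 (adjusted p up to 0.145), and in the 6-library model and in the 9-library model (adjusted p up to 0.172). The promoter of Plin2 is shown because the gene rose with small spread. The window runs from 250 bases before to 50 after the annotated start (RefSeq, GRCm38.p6, chr4:86670010-86670309, minus strand), 5′ to 3′, with capitals marking its CCAAT box, read on either strand.
Plin2: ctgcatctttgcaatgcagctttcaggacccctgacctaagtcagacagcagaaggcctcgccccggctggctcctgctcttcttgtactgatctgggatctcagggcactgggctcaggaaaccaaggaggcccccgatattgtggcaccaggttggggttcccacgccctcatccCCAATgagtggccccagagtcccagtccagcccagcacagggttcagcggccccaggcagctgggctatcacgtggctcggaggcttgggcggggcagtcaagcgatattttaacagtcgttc
A CCAAT box was present in 43.2% of the 266 risen genes with a window, 39.1% of the 138 fallen ones, 43.3% of the 7526 members with a window and 37.4% of all 32851 windows. Genes counted if any of their windows matched, whereas the last share is over single windows, an unlike measure. Scd1, Dgat2 and Cidea had no window in the table used.

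The secreted lipid carriers Apoe and Clu rose as well. Of the 8 members among 16 listed apolipoprotein and efflux genes, 3 rose (37.5%). Apoe was at 369.6, 395 and 359.7 FPKM at P8 and 1305, 1343 and 1675 at P13 and rose by 1.93 (SE 0.22, adjusted p = 8.4e-05), and at P10 it stood between, at 779, 707 and 1023. Clu, the apolipoprotein J gene and an extracellular chaperone, was at 25.5, 31.1 and 30.4 FPKM at P8 and 165, 160.1 and 188 at P13 and rose by 2.52 (SE 0.16, adjusted p = 6.53e-07). Unlike Apoe, the P10 libraries of Clu were at 24, 24.7 and 28.2, close to P8. Mylip, a ubiquitin ligase that removes LDL receptors, rose by 0.40 (SE 0.10, adjusted p = 0.0421). The Mylip call was lost without any 1 of the 6 libraries (adjusted p up to 0.141), and with no filter, in the 6-library model, in the 9-library model and at a pseudocount of 5 (adjusted p up to 0.112). Vldlr, a receptor for triglyceride-rich particles, was the single call (6.67%) among the 15 members among 20 listed uptake and binding genes. It was low, at 0.78, 1.03 and 1.33 FPKM at P8 and 3.11, 4.19 and 2.45 at P13, and rose by 1.04 (SE 0.19, adjusted p = 0.00389). The Vldlr call was lost in the 6-library model (adjusted p = 0.0702).

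**Figure D2:**
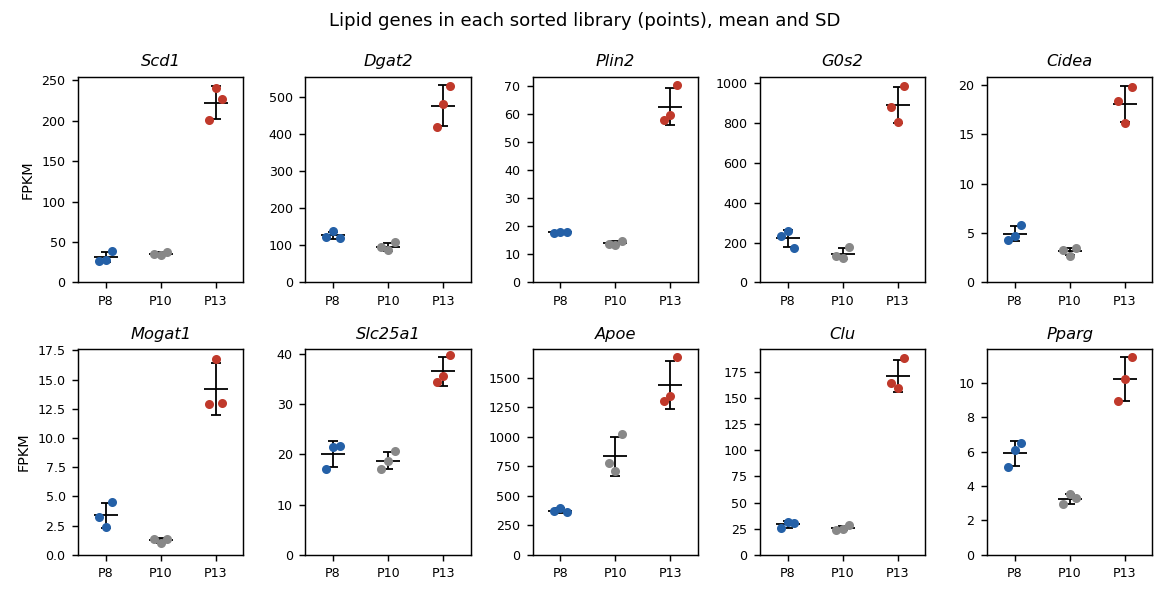
FPKM (vertical axis, starting at 0) of 10 lipid genes in each of the 3 P8 (blue), P10 (grey) and P13 (red) libraries, with the mean and SD as black bars. In every panel the 3 P13 points lie above the 3 P8 points, and for Scd1 the P8 points lie between 26.6 and 38.4 and the P13 points between 201 and 241.

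Genes that define adipocytes were mostly low at both ages. Of the 7 members among 20 adipocyte identity genes, Sncg alone was called, or 14.3% of the 7, and the 9-library model called 3. Sncg, a synuclein that is abundant in white fat, was at 1.51, 2.11 and 0.68 FPKM at P8 and 8.17, 7.78 and 8.3 at P13 and rose by 1.95 (SE 0.29, adjusted p = 0.000934). Lep, Cfd and Ucp1 were listed at 0 in all P8 and P13 libraries. Adipoq was listed at 0 in all P8 libraries and at 0 to 0.15 FPKM at P13, beside 7473 to 7965 in the inguinal adipocytes. Cidec and Plin1, the droplet proteins of white fat, were at most 0.05 and 0.44 FPKM, beside at least 2660 and 429.8 in adipocytes. Pparg, the main adipogenic receptor, was at 5.11, 6.07 and 6.52 FPKM at P8 and 8.96, 10.2 and 11.5 at P13. Its groups did not overlap, but the difference of 0.70 (95% confidence interval 0.27 to 1.13, adjusted p = 0.0688) did not pass. Cebpa was at 0.88, 1.14 and 6.6 FPKM at P8 and 2.97, 2.72 and 2.76 at P13, where P8 replicate 3 alone was above all P13 libraries, and its difference was 0.29 (95% confidence interval -0.62 to 1.19, adjusted p = 0.826). Fabp4 was low at 0.96, 1.65 and 0.95 FPKM at P8 and 1.67, 2.23 and 1.58 at P13, with a difference of 0.38 (95% confidence interval 0.02 to 0.74, adjusted p = 0.283). Of the 15 members among 20 adipogenic transcription factors 2 rose, or 13.3%. Stat5a rose by 0.51 (SE 0.12, adjusted p = 0.0228) and Zfp467 rose by 0.61 (SE 0.16, adjusted p = 0.0465). The Stat5a call was lost without P13 replicate 2 or 3 or P8 replicate 1 or 2 (adjusted p up to 0.11), and in the 6-library model and in the 9-library model (adjusted p up to 0.196). The Zfp467 call was lost without P13 replicate 1, 2 or 3 or P8 replicate 1 or 2 (adjusted p up to 0.161), and with no filter, in the 6-library model, in the 9-library model, at a pseudocount of 0.1 and with the replicate block (adjusted p up to 0.192).

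The calls among genes of energy metabolism and cholesterol synthesis were all rises. The share that rose was 8.70% for glycolysis and the pentose phosphate pathway, 12.5% for the citrate cycle, 5.48% for the nuclear respiratory chain, 12.5% for fatty acid oxidation and 13.0% for cholesterol synthesis, beside 3.55% of all members. Of the 23 members among 26 glycolysis and pentose phosphate genes, 2 rose, both subunits of phosphofructokinase. Pfkp was at 6.2, 9.04 and 7.19 FPKM at P8 and 17, 17.8 and 14.2 at P13 and rose by 1.04 (SE 0.13, adjusted p = 0.00025), and Pfkm rose by 0.55 (SE 0.10, adjusted p = 0.00545). The Pfkm call was lost in the 6-library model (adjusted p = 0.0971). Of 24 citrate cycle genes 3 rose, Idh1 (0.70), Pcx (0.61) and Sdhd (0.45), with a median of 0.04. The Idh1 call was lost without any 1 of the 6 libraries (adjusted p up to 0.172), and with no filter, without the mean-variance trend and at a pseudocount of 0.1 (adjusted p up to 0.095). The Pcx call was lost without P13 replicate 3 or P8 replicate 1 (adjusted p up to 0.0657), and in the 6-library model and at a pseudocount of 5 (adjusted p up to 0.0771). The Sdhd call was lost without any 1 of the 6 libraries (adjusted p up to 0.18), and with no filter, in the 6-library model, in the 9-library model and with the replicate block (adjusted p up to 0.165). Of 73 nuclear respiratory chain genes, 4 rose and none fell, with a median of 0.34 and 64 above 0. Ndufa1, a subunit of complex I, was at 96.9, 106 and 62 FPKM at P8 and 159, 187 and 172 at P13 and rose by 0.99 (SE 0.20, adjusted p = 0.0101). The Ndufa1 call was lost in the 6-library model and in the 9-library model (adjusted p up to 0.106). Uqcrq, a subunit of complex III, rose by 0.79 (SE 0.20, adjusted p = 0.0378). The Uqcrq call was lost without P13 replicate 1, 2 or 3 or P8 replicate 1 or 3 (adjusted p up to 0.155), and with no filter, in the 6-library model and in the 9-library model (adjusted p up to 0.0926). The count for this list was 1 without any 1 of the libraries other than P8 replicate 2, and 8 without P8 replicate 2. The 13 mitochondrially encoded protein genes had no call, with a median of 0.35. Cytosolic ribosomal protein genes lay on the other side of 0, with a median of -0.24 and 75 of 85 members below 0. None of them fell by the test, and Rps27l was called higher by 0.78 (SE 0.21, adjusted p = 0.05), where the p is rounded up. The Rps27l call was lost without P13 replicate 1, 2 or 3 or P8 replicate 1 or 3 (adjusted p up to 0.194), and with no filter, in the 6-library model, in the 9-library model, at a pseudocount of 5 and with the replicate block (adjusted p up to 0.187). Of 23 cholesterol synthesis genes, 3 rose, namely Tm7sf2 (0.94), Acat2 (0.74) and Pmvk (0.70), and none of these calls held without P13 replicate 3 or without P8 replicate 1. The 9-library model called 5 rises of this list. Of 24 fatty acid oxidation genes 3 rose, Etfb (0.79), Etfa (0.59) and Slc25a20 (0.53), and none of these calls held without P13 replicate 3. This count was 1 without P8 replicate 1 or without P8 replicate 3, and 1 in the 6-library or the 9-library model.

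The core of the cartilage matrix did not pass the test. Col2a1, the type II collagen gene, was at 4370.2, 4382 and 6549 FPKM at P8 and 3703, 4374 and 4664 at P13, and its difference was -0.24 (95% confidence interval -0.61 to 0.12, adjusted p = 0.542). Eln, the elastin gene and one of the most abundant transcripts, was at 26701, 23874 and 33735 FPKM at P8 and 24085, 23309 and 25075 at P13 and differed by -0.20 (95% confidence interval -0.74 to 0.33, adjusted p = 0.776). Both genes had overlapping groups with P8 replicate 3 as the highest library. Sox9, the transcription factor that drives Col2a1, differed by 0.18 (95% confidence interval -0.29 to 0.65, adjusted p = 0.776). Acan, the aggrecan gene, was at 112, 86.5 and 282 FPKM at P8 and 116, 119 and 154 at P13, and its difference of -0.12 (95% confidence interval -0.96 to 0.72, adjusted p = 0.936) turned to 0.38 without P8 replicate 3.

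Several smaller cartilage genes rose. Of the 24 members among 26 such genes, 5 rose (20.8%) and none fell, with a median of 0.21. Snorc, a small membrane proteoglycan of chondrocytes that the table lists as 3110079O15Rik, was at 597, 608 and 409 FPKM at P8 and 2513, 2145 and 2576 at P13. All P13 libraries were far above the highest P8 library, and it rose by 2.18 (SE 0.14, adjusted p = 6.53e-07). Col9a1 and Col11a1, chains of the collagens that decorate and thin type II fibrils, rose by 0.82 (SE 0.17, adjusted p = 0.0129) and 0.89 (SE 0.23, adjusted p = 0.0423). Mia rose by 0.74 (SE 0.18, adjusted p = 0.0343), and Prg4, the lubricin gene, rose by 1.32 (SE 0.32, adjusted p = 0.0298). The Col9a1 call was lost without P13 replicate 2 or 3 or P8 replicate 1 (adjusted p up to 0.071), and in the 6-library model (adjusted p = 0.0743). The Col11a1 call was lost without any 1 of the 6 libraries (adjusted p up to 0.151), and with no filter and at a pseudocount of 0.1 (adjusted p up to 0.086). The Mia call was lost without P13 replicate 1, 2 or 3 or P8 replicate 1 or 3 (adjusted p up to 0.117), and with no filter, in the 6-library model, in the 9-library model and at a pseudocount of 0.1 (adjusted p up to 0.27). The Prg4 call was lost without P13 replicate 1 or 2 or P8 replicate 1, 2 or 3 (adjusted p up to 0.124), and with no filter, in the 6-library model, in the 9-library model and at a pseudocount of 5 (adjusted p up to 0.209). The count for this list was 1 without P8 replicate 1 or without P13 replicate 2, 2 without P13 replicate 1, and 3 without any other library.

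Among the small leucine-rich proteoglycans, which bind collagen fibrils, 3 of 15 members rose and 2 fell. Omd, the osteomodulin gene, had the largest rise, at 6.93, 8.83 and 5.86 FPKM at P8 and 48.3, 58.8 and 61.4 at P13, and rose by 2.81 (SE 0.38, adjusted p = 0.000427). The lowest P13 library was several times the highest P8 library. Prelp rose by 0.88 (SE 0.23, adjusted p = 0.041) and Epyc rose by 0.55 (SE 0.13, adjusted p = 0.0281), whereas Ogn fell by 0.70 (SE 0.17, adjusted p = 0.0305) and Kera fell by 0.60 (SE 0.11, adjusted p = 0.00374). The Prelp call was lost without P13 replicate 2 or 3 or P8 replicate 1, 2 or 3 (adjusted p up to 0.163), and with no filter, in the 6-library model and at a pseudocount of 5 (adjusted p up to 0.0863). The Epyc call was lost without P13 replicate 1, 2 or 3 or P8 replicate 1 or 3 (adjusted p up to 0.111), and with no filter, in the 6-library model and at a pseudocount of 0.1 (adjusted p up to 0.367). The Ogn call was lost without P13 replicate 1 or 3 or P8 replicate 1, 2 or 3 (adjusted p up to 0.129), and with no filter, in the 6-library model and in the 9-library model (adjusted p up to 0.124). The Kera call was lost in the 6-library model (adjusted p = 0.0918).

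Elastic fibre genes were called in both directions, while Eln itself was not called. Of the 22 members among 23 listed genes, 2 rose (9.09%) and 5 fell (22.7%), with a median of -0.39. Loxl4, a lysyl oxidase that crosslinks collagen and elastin, was at 27.1, 27.2 and 27.9 FPKM at P8 and 125, 124 and 93.4 at P13 and rose by 2.00 (SE 0.28, adjusted p = 0.000551). Efemp2, which brings lysyl oxidase to tropoelastin, was at 364, 403 and 312 FPKM at P8 and 728, 724 and 895 at P13 and rose by 1.12 (SE 0.16, adjusted p = 0.00057). In the other direction, Fbln5 (ENSMUSG00000021186.8, chromosome 12:101746565-101819055), a fibulin that guides elastin onto microfibrils, was at 358, 406 and 306 FPKM at P8 and 115, 128 and 141 at P13. All P13 libraries lay far under all P8 libraries, and Fbln5 fell by 1.47 (SE 0.23, adjusted p = 0.00143). Emilin3 was at 21.4, 24.1 and 30.3 FPKM at P8 and 7.35, 8.44 and 8.55 at P13 and fell by 1.52 (SE 0.22, adjusted p = 0.000853). Mfap4, a microfibril protein, fell by 1.44 (SE 0.36, adjusted p = 0.0367), Fbln2 fell by 1.23 (SE 0.29, adjusted p = 0.0249) and Ltbp2 fell by 1.28 (SE 0.19, adjusted p = 0.000934). The Mfap4 call was lost without any 1 of the 6 libraries (adjusted p up to 0.115), and with no filter (adjusted p = 0.0788). The Fbln2 call was lost without any 1 of the 6 libraries (adjusted p up to 0.0949), and with no filter (adjusted p = 0.0534). The Ltbp2 call was lost in the 6-library model (adjusted p = 0.0608). Leaving out any 1 library gave 3 falls in this list.

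Several fibrillar and adhesive matrix genes of other tissues fell. Of the 19 members among 31 such collagens, Col1a1, Col12a1 and Col14a1 fell (15.8%) and Col8a1 rose (5.26%). Col1a1 (ENSMUSG00000001506.10, chromosome 11:94936224-94953042), the main chain of type I collagen, was at 1229, 1257 and 1958 FPKM at P8 and 426, 535 and 577 at P13 and fell by 1.51 (SE 0.30, adjusted p = 0.00774). Col12a1, which sits on type I fibrils, was at 44.1, 42 and 54.5 FPKM at P8 and 19, 18.4 and 13.9 at P13 and fell by 1.41 (SE 0.18, adjusted p = 0.00028). Col14a1, a relative of it, was at 15.3, 14.6 and 18.8 FPKM at P8 and 7.05, 6.96 and 5.91 at P13 and fell by 1.17 (SE 0.21, adjusted p = 0.00454). Col8a1, a short-chain collagen, was at 595, 681 and 837 FPKM at P8 and 2243, 2756 and 3067 at P13 and rose by 1.93 (SE 0.16, adjusted p = 5.56e-06). Of 24 matricellular genes, 8 fell (33.3%) and 4 rose (16.7%). Postn, the periostin gene, was at 246, 304 and 274 FPKM at P8 and 81.2, 112 and 112 at P13 and fell by 1.43 (SE 0.24, adjusted p = 0.00229). Tgfbi was at 137, 155 and 148 FPKM at P8 and 42.5, 47.8 and 49.5 at P13 and fell by 1.63 (SE 0.26, adjusted p = 0.00147). Tnc, the tenascin C gene, fell by 1.37 (SE 0.26, adjusted p = 0.00601) and Wisp1 fell by 1.34 (SE 0.15, adjusted p = 7.58e-05). In the rising direction, Ctgf, a CCN gene and target of YAP, was at 355, 346 and 205 FPKM at P8 and 781, 802 and 916 at P13 and rose by 1.50 (SE 0.21, adjusted p = 0.00065). Cyr61, of the same family, was at 1281, 1574 and 1029 FPKM at P8 and 2875, 3393 and 3527 at P13 and rose by 1.35 (SE 0.17, adjusted p = 0.000264). Spp1, the osteopontin gene, was at 1.09, 1.45 and 0.95 FPKM at P8 and 10.2, 10.3 and 13 at P13 and rose by 2.49 (SE 0.38, adjusted p = 0.00111).

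The summed level of markers of fibroblasts and perichondrium, which include Col1a1, was 3622 to 5066 FPKM at P8, 6499 to 8596 at P10 and 2186 to 2841 at P13. Of the 14 listed markers 12 were members, of which 3 fell (Col1a1, Postn and Col14a1, the same genes as among the matrix falls above) and 1, Ly6a, was called higher by 0.69 (SE 0.18, adjusted p = 0.0432). The median over the 12 was -0.27, with 5 above 0 and 7 below. The Ly6a call was lost without P13 replicate 1, 2 or 3 or P8 replicate 1 or 2 (adjusted p up to 0.16), and with no filter, in the 6-library model, at a pseudocount of 5 and with the replicate block (adjusted p up to 0.213). The part of such cells in the matrix falls was not tested.

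Matrix proteases were called in both directions. Of the 25 members among 45 listed proteases and inhibitors, 7 rose and 4 fell, and the falls numbered 2 without P13 replicate 3 or without P8 replicate 3. The rises included 3 tissue inhibitors of metalloproteinases. Timp1 was at 112, 125 and 101 FPKM at P8 and 225, 237 and 268 at P13 and rose by 1.11 (SE 0.18, adjusted p = 0.0015). Timp4 was at 6.98, 6.01 and 6.63 FPKM at P8 and 14.3, 18.2 and 18.2 at P13 and rose by 1.24 (SE 0.14, adjusted p = 5.98e-05), and Timp3 rose by 0.72 (SE 0.11, adjusted p = 0.0013). Htra4, a secreted serine protease, rose by 1.39 (SE 0.22, adjusted p = 0.0015). The metalloprotease Mmp11 was at 3.63, 4 and 4.3 FPKM at P8 and 1.19, 2.18 and 1.46 at P13 and fell by 0.95 (SE 0.14, adjusted p = 0.000979). The Mmp11 call was lost in the 6-library model (adjusted p = 0.0647). Of the 6 members among 19 listed hypertrophy and mineralization genes, Spp1, described above, alone rose (16.7%) and none fell. The median was 0.62, with 5 above 0 and 1 below. The summed level of the list was 1587 to 2591 FPKM at P8 and 3241 to 4669 at P13. Mmp13, the collagenase of hypertrophic cartilage, was listed at 0 in all P8 and P13 libraries, as were the mineralization genes Bglap and Dmp1. Col10a1, the collagen of hypertrophic chondrocytes, was at 3.95, 3.55 and 3.31 FPKM at P8 and 8.88, 7.36 and 9.83 at P13. Its groups did not overlap, but the difference of 1.07 (95% confidence interval 0.03 to 2.11, adjusted p = 0.301) did not pass.

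Secreted antagonists of Wnt signalling moved in opposite directions. Wnt proteins bind Frizzled and Lrp receptors, and antagonists of several families bind the ligand or the receptor. Of the 27 members among 57 listed genes, 5 rose (18.5%) and 3 fell (11.1%), and leaving out any 1 library left 3 rises. Wif1 (ENSMUSG00000020218.11, chromosome 10:121033960-121100650), Wnt inhibitory factor, was at 346, 418 and 302 FPKM at P8 and 1215, 1492 and 1479 at P13 and rose by 1.98 (SE 0.26, adjusted p = 0.000342). Its P10 libraries, at 394, 439 and 462, were near the P8 level. Notum, an enzyme that inactivates Wnt by removing its lipid, was low at 0.64, 0.61 and 0.76 FPKM at P8 and 2.61, 3.38 and 3.58 at P13 and rose by 1.32 (SE 0.16, adjusted p = 0.000211). It was a member through P13 alone, so that its levels had to differ. Sfrp2, a secreted Frizzled-related protein, went down from 25.6, 30.5 and 34.8 FPKM at P8 to 6.18, 7.96 and 7.64 at P13. It fell by 1.92 (SE 0.19, adjusted p = 2.59e-05), while its P10 libraries were the highest at 69.5, 66.6 and 78. Frzb, another Frizzled-related protein, was at 22.8, 28.1 and 26.9 FPKM at P8 and 53.8, 67.5 and 59.2 at P13 and rose by 1.18 (SE 0.31, adjusted p = 0.0442). The Frzb call was lost without any 1 of the 6 libraries (adjusted p up to 0.146), and with no filter and at a pseudocount of 5 (adjusted p up to 0.0928). Sostdc1, which blocks both Wnt and BMP, was at 2.48, 3.06 and 3.36 FPKM at P8 and 0.57, 0.4 and 0.59 at P13 and fell by 1.38 (SE 0.22, adjusted p = 0.00142). It was a member through P8 alone, so that its levels had to differ. The receptor Fzd9 rose by 0.66 (SE 0.13, adjusted p = 0.00618). The Fzd9 call was lost in the 6-library model and at a pseudocount of 0.1 (adjusted p up to 0.304).

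Of 38 BMP and TGF-beta signalling members, 5 fell (13.2%) and 2 rose (5.26%), beside 1.96% and 3.55% of all members. The falls numbered 3 without P13 replicate 1 or without P8 replicate 3. Noggin (Nog), a BMP antagonist, was at 25.6, 22.2 and 38.4 FPKM at P8 and 9.51, 10.4 and 10.8 at P13 and fell by 1.37 (SE 0.23, adjusted p = 0.00259). Bambi, a decoy receptor of the family, was at 12, 13.9 and 12.5 FPKM at P8 and 24.1, 29.2 and 30.7 at P13 and rose by 1.07 (SE 0.13, adjusted p = 0.000139). The ligand Bmp2 was at 15.6, 18 and 17.2 FPKM at P8 and 6.33, 11.4 and 9.85 at P13 and fell by 0.85 (SE 0.16, adjusted p = 0.00535). The ligand Gdf5, which is made at joints and in cartilage, was at 55.9, 64.1 and 55 FPKM at P8 and 97.5, 118 and 125 at P13 and rose by 0.95 (SE 0.24, adjusted p = 0.0373). The Bmp2 call was lost in the 6-library model and in the 9-library model (adjusted p up to 0.134). The Gdf5 call was lost without any 1 of the 6 libraries (adjusted p up to 0.141), and with no filter (adjusted p = 0.076). Hes1, a target of Notch, was at 53.5, 63.1 and 60.8 FPKM at P8 and 21.3, 27.9 and 23.8 at P13 and fell by 1.25 (SE 0.17, adjusted p = 0.000462).

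In the IGF axis, Igf1 and the receptor Ghr rose, and Socs2 and 2 binding proteins fell. These were the only calls among the 20 members of 24 listed insulin and IGF signalling genes, 2 rises (10.0%) and 3 falls (15.0%). The other 15 members were not called. The list median was -0.41, with 8 members above 0 and 12 below. Growth hormone acts through its receptor Ghr and induces Igf1, while Igf2 is the fetal ligand. Igf1 was at 30.2, 27.5 and 22.5 FPKM at P8 and 63.1, 54.4 and 53.1 at P13 and rose by 1.07 (SE 0.12, adjusted p = 0.000102). Ghr was at 6.44, 6.67 and 7.9 FPKM at P8 and 12.1, 12.4 and 11.2 at P13 and rose by 0.69 (SE 0.12, adjusted p = 0.00287). Socs2, an inhibitor of growth hormone signalling, was at 13.6, 13.8 and 13.5 FPKM at P8 and 5.65, 5.22 and 6.82 at P13 and fell by 1.09 (SE 0.19, adjusted p = 0.00287). The binding protein Igfbp3 was at 5.59, 5.4 and 6.99 FPKM at P8 and 1.45, 1.94 and 1.68 at P13 and fell by 1.38 (SE 0.23, adjusted p = 0.00204). Igfbp4 fell by 1.17 (SE 0.31, adjusted p = 0.0449). The Igfbp4 call was lost without any 1 of the 6 libraries (adjusted p up to 0.135), and with median-of-ratios scaling, with no filter and at a pseudocount of 5 (adjusted p up to 0.0938). Igf2 was at 1308, 1339 and 1267 FPKM at P8 and 615, 786 and 457 at P13. Its groups did not overlap, and the difference was -1.11 (95% confidence interval -1.85 to -0.36, adjusted p = 0.1).

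All 16 imprinted growth genes, of 23 listed, had a difference under 0, with a median of -0.62, and 6 fell by the test (37.5%). H19, the imprinted long RNA next to Igf2, was at 151, 179.6 and 114 FPKM at P8 and 48.5, 48.6 and 40.3 at P13 and fell by 1.65 (SE 0.30, adjusted p = 0.00469). Cdkn1c (ENSMUSG00000037664.12, chromosome 7:143458339-143461050), a cell cycle inhibitor of the same imprinted domain, was at 222, 252 and 276 FPKM at P8 and 72.5, 80.6 and 88.8 at P13 and fell by 1.62 (SE 0.24, adjusted p = 0.000934). Dlk1, which holds back adipocyte differentiation, was at 80.5, 64.4 and 305 FPKM at P8 and 20.6, 23.5 and 24 at P13 and fell by 2.32 (SE 0.48, adjusted p = 0.0107). P8 replicate 3 was far above the other P8 libraries, and all P13 libraries were lower than all of them. The Dlk1 call was lost in the 6-library model and in the 9-library model (adjusted p up to 0.152). Nnat was at 1.6, 2.23 and 1.77 FPKM at P8 and 0.33, 0 and 0.15 at P13 and fell by 1.31 (SE 0.16, adjusted p = 0.000226), and as a member through P8 alone it had to differ. Rian fell by 0.91 (SE 0.19, adjusted p = 0.0131) and Peg3 fell by 0.58 (SE 0.13, adjusted p = 0.0172). The Rian call was lost without P13 replicate 1 or 2 or P8 replicate 3 (adjusted p up to 0.0547), and at a pseudocount of 0.1 (adjusted p = 0.097). The Peg3 call was lost without P13 replicate 1 or 3 or P8 replicate 3 (adjusted p up to 0.0926), and in the 6-library model and in the 9-library model (adjusted p up to 0.137). The falls numbered 4 without P8 replicate 3 or without P13 replicate 1.

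**Figure D3:**
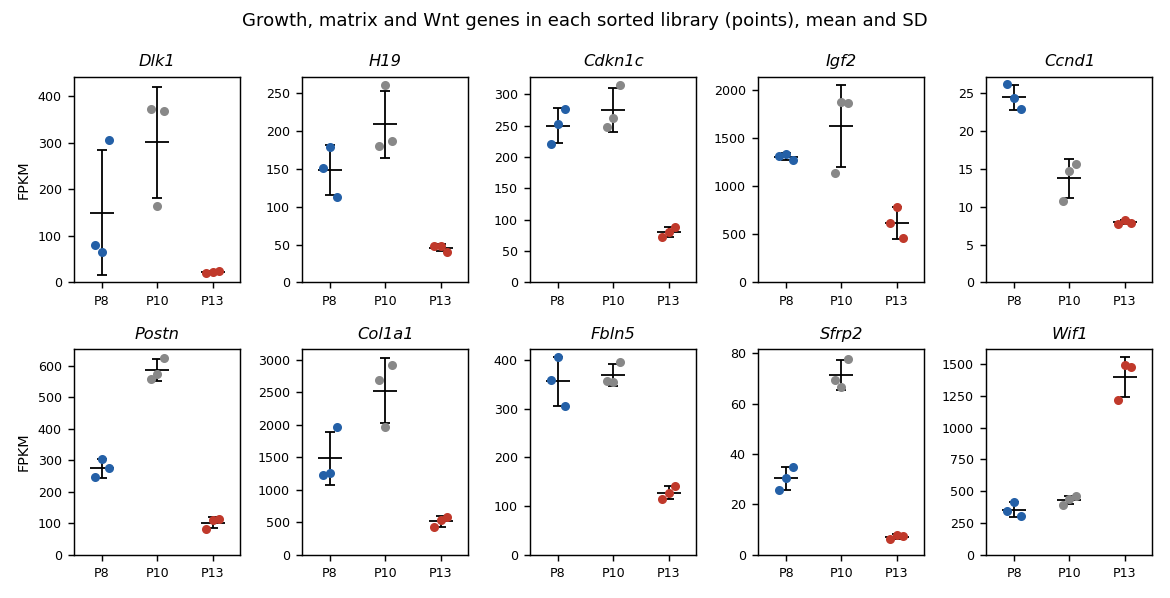
FPKM (vertical axis, starting at 0) of 10 growth, matrix and Wnt genes in each of the 3 P8 (blue), P10 (grey) and P13 (red) libraries, with the mean and SD as black bars. Wif1 is the gene whose P13 points lie above its P8 points, and in the other 9 panels the P13 points lie lowest. In the Dlk1 panel P8 replicate 3 stands at 305 FPKM beside 80.5 and 64.4.

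Genes of the cell cycle were called lower more than higher. All 36 members of the proliferation list, of 44 listed, had a difference under 0, with a median of -0.25. Called lower were 3 of them (8.33%), Mcm6 (-0.72), Tk1 (-0.50) and Ccna2 (-0.44). None of the 3 calls held without P13 replicate 3 or without P8 replicate 3. Of the 16 members among 21 listed cell cycle inhibitors, D cyclins and related genes, 5 fell and 2 rose, or 31.2% and 12.5% of the members, with a median of -0.38 and 14 below 0. The falls were Cdkn1c, described above, Ccnd1, Ccnd2 (-0.90), E2f1 (-0.63) and Cdkn2d (-0.61). The Ccnd2 call was lost without P13 replicate 1 or 2 or P8 replicate 1, 2 or 3 (adjusted p up to 0.113), and with no filter (adjusted p = 0.0628). The E2f1 call was lost without P13 replicate 1 or 2 or P8 replicate 3 (adjusted p up to 0.0976), and with no filter, in the 6-library model, in the 9-library model and at a pseudocount of 5 (adjusted p up to 0.186). The Cdkn2d call was lost without any 1 of the 6 libraries, with no filter and at a pseudocount of 0.1. E2f1 was below 1 FPKM in all P13 libraries and a member through P8 alone, so that its levels had to differ. Ccnd1, the D cyclin that opens the cycle, was at 26.1, 24.2 and 22.8 FPKM at P8 and 7.72, 8.2 and 7.87 at P13 and fell by 1.51 (SE 0.25, adjusted p = 0.00192). Cdkn1a, the p21 inhibitor, was at 42.1, 51.1 and 43.7 FPKM at P8 and 103, 115 and 121 at P13 and rose by 1.29 (SE 0.18, adjusted p = 0.000662). Gadd45a, a gene of the DNA damage response, was at 10.7, 14.5 and 13.5 FPKM at P8 and 27.7, 40.2 and 37.9 at P13 and rose by 1.38 (SE 0.24, adjusted p = 0.00287), and its P10 libraries were higher still at 62.1, 61.5 and 71.9.

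Stress response lists held several of the largest rises. The NRF2 list, genes that answer to oxidants, had 9 rises (23.7%) and no fall among the 38 members among 47 listed genes, with a median of 0.27. Osgin1, an oxidative stress gene that restrains growth (ENSMUSG00000074063.9, chromosome 8:119434124-119446256), was at 2.19, 2.52 and 2.18 FPKM at P8 and 19.8, 23.6 and 26.3 at P13, and at 7.4, 6.59 and 8.04 at P10. It rose by 2.87 (SE 0.16, adjusted p = 3.17e-07), the largest rise among the members with at least 10 FPKM at the higher stage, non-overlapping groups and a standard symbol. Cbr2, a carbonyl reductase, was at 11.7, 12.2 and 12.5 FPKM at P8 and 81.9, 88.3 and 95.1 at P13 and rose by 2.77 (SE 0.19, adjusted p = 9.3e-07). Sod3, the extracellular superoxide dismutase, was at 2.43, 2.52 and 3.03 FPKM at P8 and 9.11, 10.1 and 12 at P13 and rose by 1.64 (SE 0.16, adjusted p = 1.69e-05). Nqo1, a quinone reductase, was at 6.16, 8.53 and 6.72 FPKM at P8 and 15.4, 21.2 and 19.6 at P13 and rose by 1.28 (SE 0.16, adjusted p = 0.000271). Mt1, a metallothionein, was at 4.71, 5.82 and 3.8 FPKM at P8 and 19.1, 19.7 and 20.9 at P13, and it rose by 1.87 (SE 0.29, adjusted p = 0.00142). Its P10 libraries, at 15.1, 24 and 26.4, were at the P13 level. The count for this list was 6 without P13 replicate 3 or without P8 replicate 1, and the calls for the genes just named were kept.

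Of the 30 members among 31 listed genes of endoplasmic reticulum stress, 6 rose and 1 fell. Hspa5 (ENSMUSG00000026864.13, chromosome 2:34771970-34777547), the chaperone BiP, was at 311, 394 and 310.3 FPKM at P8 and 771, 944 and 896 at P13 and rose by 1.37 (SE 0.12, adjusted p = 1.11e-05). Ddit3, the transcription factor CHOP, was at 21.2, 21.4 and 19.2 FPKM at P8 and 48.8, 48.9 and 51.9 at P13 and rose by 1.24 (SE 0.11, adjusted p = 1.11e-05). In both genes P10 lay between, at 393, 463 and 441 for Hspa5 and 28.9, 32.4 and 30.5 for Ddit3. Creb3l2, a membrane-bound factor that supports collagen secretion, was at 11.9, 11.9 and 12.9 FPKM at P8 and 8.19, 8.09 and 6.75 at P13 and fell by 0.61 (SE 0.09, adjusted p = 0.000945). In the 6-library model, 2 rises of this list were called.

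The immediate early genes, which are known to rise during tissue dissociation, gave 8 rises (32.0%) and 1 fall (4.0%) among 25 members, with a median of 0.42. Btg2, an antiproliferative gene, was at 77.7, 88 and 74.9 FPKM at P8 and 385, 442 and 462 at P13 and rose by 2.41 (SE 0.17, adjusted p = 1.22e-06). Atf3 was at 163, 188 and 189 FPKM at P8 and 521, 597 and 683 at P13 and rose by 1.73 (SE 0.17, adjusted p = 2.21e-05). Klf6 was at 67.5, 84.8 and 60.3 FPKM at P8 and 195, 241 and 219.6 at P13 and rose by 1.62 (SE 0.16, adjusted p = 1.97e-05). Jun was at 938, 1069 and 912 FPKM at P8 and 1678, 2154 and 2118 at P13 and rose by 1.02 (SE 0.14, adjusted p = 0.000442), and Ier2 rose by 1.26 (SE 0.18, adjusted p = 0.000771). Fos, the usual partner of Jun, was among the most abundant genes at 6259.9, 7105 and 6396 FPKM at P8 and 9831, 10984 and 11175 at P13. Its groups did not overlap, but its difference was 0.70 (95% confidence interval -0.17 to 1.56, adjusted p = 0.445). The fall was Gadd45b, which fell by 0.64 (SE 0.15, adjusted p = 0.0213). The Gadd45b call was lost without P13 replicate 1 or 2 or P8 replicate 2 or 3, and in the 6-library model. Nfkbia, the inhibitor of NF-kappaB, was at 293, 332 and 274 FPKM at P8 and 90.3, 105 and 106 at P13 and fell by 1.57 (SE 0.15, adjusted p = 1.59e-05). The heat shock genes, which respond to the same handling, were called in both directions. Of the 16 members among 17 listed, 3 rose (18.8%) and 2 fell (12.5%), with a median of 0.05. Hspa1a and Hspa1b are near-identical copies of the inducible Hsp70 gene that share reads, so their separate values are uncertain. Hspa1a was at 156, 191 and 165 FPKM at P8 and 67.9, 92.7 and 97.6 at P13 and fell by 0.99 (SE 0.21, adjusted p = 0.0122). Hspa1b was at 15.2, 13.2 and 10.4 FPKM at P8 and 4.89, 5.21 and 4.03 at P13 and fell by 1.27 (SE 0.17, adjusted p = 0.000337). The Hspa1a call was lost without P13 replicate 1 or P8 replicate 2 (adjusted p up to 0.0592), and in the 6-library model (adjusted p = 0.0539). The small heat shock protein gene Hspb1 was at 86.2, 87.4 and 89.7 FPKM at P8 and 205, 209 and 222 at P13 and rose by 1.26 (SE 0.25, adjusted p = 0.00755). P8 and P13 cells were digested and sorted by the same protocol, and the part of handling in these rises was not tested.

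**Figure D4:**
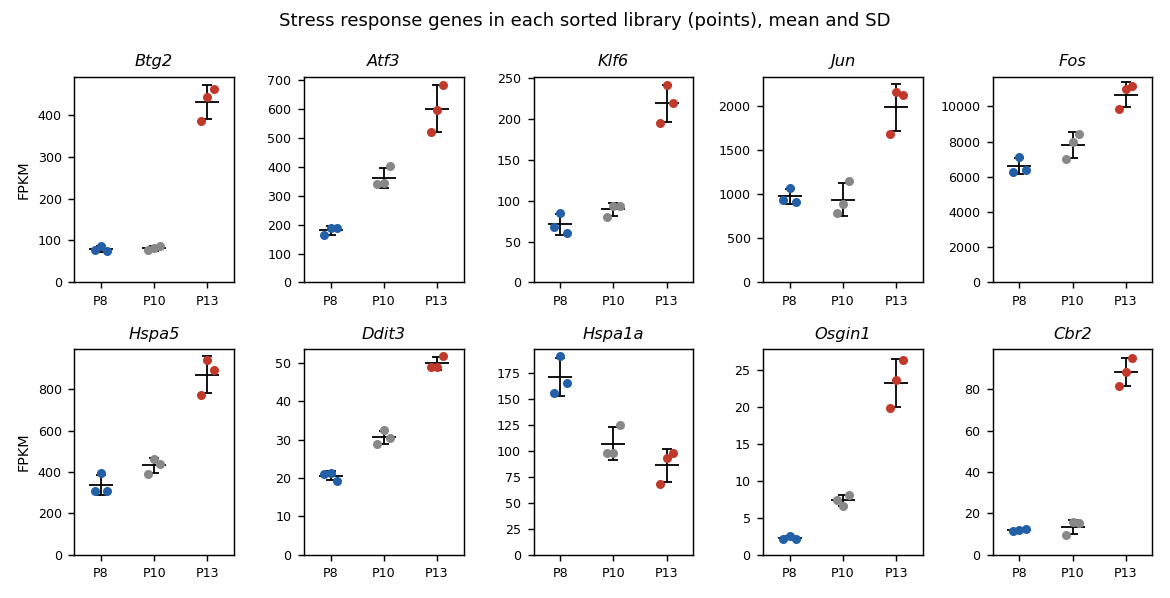
FPKM (vertical axis, starting at 0) of 10 stress response genes in each of the 3 P8 (blue), P10 (grey) and P13 (red) libraries, with the mean and SD as black bars. In 9 panels the P13 points lie above the P8 points, and in the Hspa1a panel they lie under them, at 67.9 to 97.6 against 156 to 191.

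Promoters of Osgin1, Hspa5 and Btg2 are shown because these genes led the 3 stress lists. The windows run 5′ to 3′ from 250 bases before to 50 after the start (RefSeq, GRCm38.p6). Osgin1 is at chr8:119436897-119437196, plus strand, Hspa5 at chr2:34771840-34772139, plus strand and Btg2 at chr1:134079106-134079405, minus strand. Capitals mark the AP-1 motif TGANTCA, the cyclic AMP response element TGACGTCA and the CCAAT box, on either strand, and capitals run together where motifs overlap.
Osgin1: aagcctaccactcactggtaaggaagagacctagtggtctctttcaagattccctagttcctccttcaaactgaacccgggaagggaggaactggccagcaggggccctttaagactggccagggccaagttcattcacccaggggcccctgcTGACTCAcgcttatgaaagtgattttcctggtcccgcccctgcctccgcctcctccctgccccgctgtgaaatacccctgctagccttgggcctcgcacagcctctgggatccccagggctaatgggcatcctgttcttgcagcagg
Hspa5: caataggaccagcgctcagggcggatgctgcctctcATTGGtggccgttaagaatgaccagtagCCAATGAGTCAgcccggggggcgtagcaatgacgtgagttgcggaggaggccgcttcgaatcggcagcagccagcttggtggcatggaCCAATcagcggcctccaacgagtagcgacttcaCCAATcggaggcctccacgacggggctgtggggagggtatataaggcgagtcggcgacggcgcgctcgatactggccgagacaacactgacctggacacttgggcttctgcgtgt
Btg2: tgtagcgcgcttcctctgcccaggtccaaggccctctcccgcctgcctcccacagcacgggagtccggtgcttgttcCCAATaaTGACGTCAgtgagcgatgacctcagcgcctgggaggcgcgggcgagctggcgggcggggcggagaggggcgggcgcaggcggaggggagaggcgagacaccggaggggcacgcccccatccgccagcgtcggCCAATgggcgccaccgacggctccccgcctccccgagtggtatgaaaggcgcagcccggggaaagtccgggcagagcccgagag
Osgin1 held 1 AP-1 match, Hspa5 1 AP-1 match and 4 CCAAT boxes, and Btg2 1 cyclic AMP response element and 2 CCAAT boxes. An AP-1 match was in 8.27% of the risen genes with a window, 4.35% of the fallen, 5.58% of all members with a window and 7.81% of all windows. In these shares a gene counted if any of its windows matched, whereas the share of all windows is over single windows. The gene shares and the window share are therefore unlike measures. The antioxidant response element TGACNNNGC, searched on both strands, was in 19.5% of the risen, 13% of the fallen, 16.9% of members and 12.4% of all windows. The sterol response element TCACNCCAC was in 2.26% of the risen, 0% of the fallen, 1.34% of members and 1.24% of all windows. For the cyclic AMP response element marked in Btg2, the share was lower in the risen genes (1.50%) than in the fallen (5.07%). It was 3.83% of members and 1.79% of all windows. These shares describe the windows and are not evidence of binding.

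Hormone-responsive genes were called in both directions. Of 17 members of the thyroid and retinoid response list, 2 fell (11.8%) and 1 rose (5.88%), with a median of -0.32. Crabp2 (-0.79) and Dhrs3 (-0.67) fell and Rarres1 (1.04) rose. The Crabp2 call was lost without P13 replicate 2 or 3 or P8 replicate 1, 2 or 3 (adjusted p up to 0.171), and with no filter, in the 6-library model, in the 9-library model, at a pseudocount of 0.1 and with the replicate block (adjusted p up to 0.227). The Dhrs3 call was lost in the 6-library model and in the 9-library model (adjusted p up to 0.122). The Rarres1 call was lost without P13 replicate 1 (adjusted p = 0.0522), and in the 6-library model and at a pseudocount of 5 (adjusted p up to 0.369). Rarres1 was at 0.23, 0.47 and 0.19 FPKM at P8 and 2.44, 1.46 and 1.2 at P13. It was a member through P13 alone, so that its levels had to differ. Of 17 glucocorticoid-responsive members, 4 rose (23.5%) and none fell, and the 9-library model called 7 rises. Besides Mt1 and Cdkn1a these were Hsd11b1, the enzyme that regenerates active glucocorticoid, and the kinase gene Sgk1. Hsd11b1 was at 1.25, 1.14 and 1.37 FPKM at P8 and 4.01, 3.96 and 4.48 at P13 and rose by 1.19 (SE 0.11, adjusted p = 1.11e-05), and Sgk1 rose by 0.82 (SE 0.13, adjusted p = 0.0019). The Sgk1 call was lost in the 6-library model (adjusted p = 0.0757). Among 17 S100 and annexin members, 6 rose (35.3%) and 1 fell (5.88%). There were 3 rises without P13 replicate 2 or 3 or without P8 replicate 1 or 3. Anxa8 was at 23.2, 29.3 and 23.2 FPKM at P8 and 76.7, 81.2 and 94.2 at P13 and rose by 1.70 (SE 0.14, adjusted p = 3.87e-06). S100b, which is abundant in chondrocytes and Schwann cells, was at 81.6, 90.8 and 70.1 FPKM at P8 and 168, 178 and 176 at P13 and rose by 1.10 (SE 0.15, adjusted p = 0.000323). The summed level of the Schwann cell markers was 502 to 557 FPKM at P8 and 456 to 495 at P13. Fxyd3, a regulator of the sodium pump, was at 566, 622 and 359 FPKM at P8 and 2252, 1992 and 2111 at P13 and rose by 2.07 (SE 0.21, adjusted p = 2.52e-05). The innate immunity list had 4 falls (18.2%) and 1 rise (4.5%) among 22 members. Ifitm1, an interferon-induced membrane protein gene, was at 6.08, 6.08 and 6.36 FPKM at P8 and 0.99, 1.52 and 1.26 at P13 and fell by 1.68 (SE 0.25, adjusted p = 0.000979). The chemokine gene Cxcl12 was at 6.81, 6.47 and 8.55 FPKM at P8 and 3.24, 3.38 and 3.62 at P13 and fell by 0.90 (SE 0.14, adjusted p = 0.00164).

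**Figure D5:**
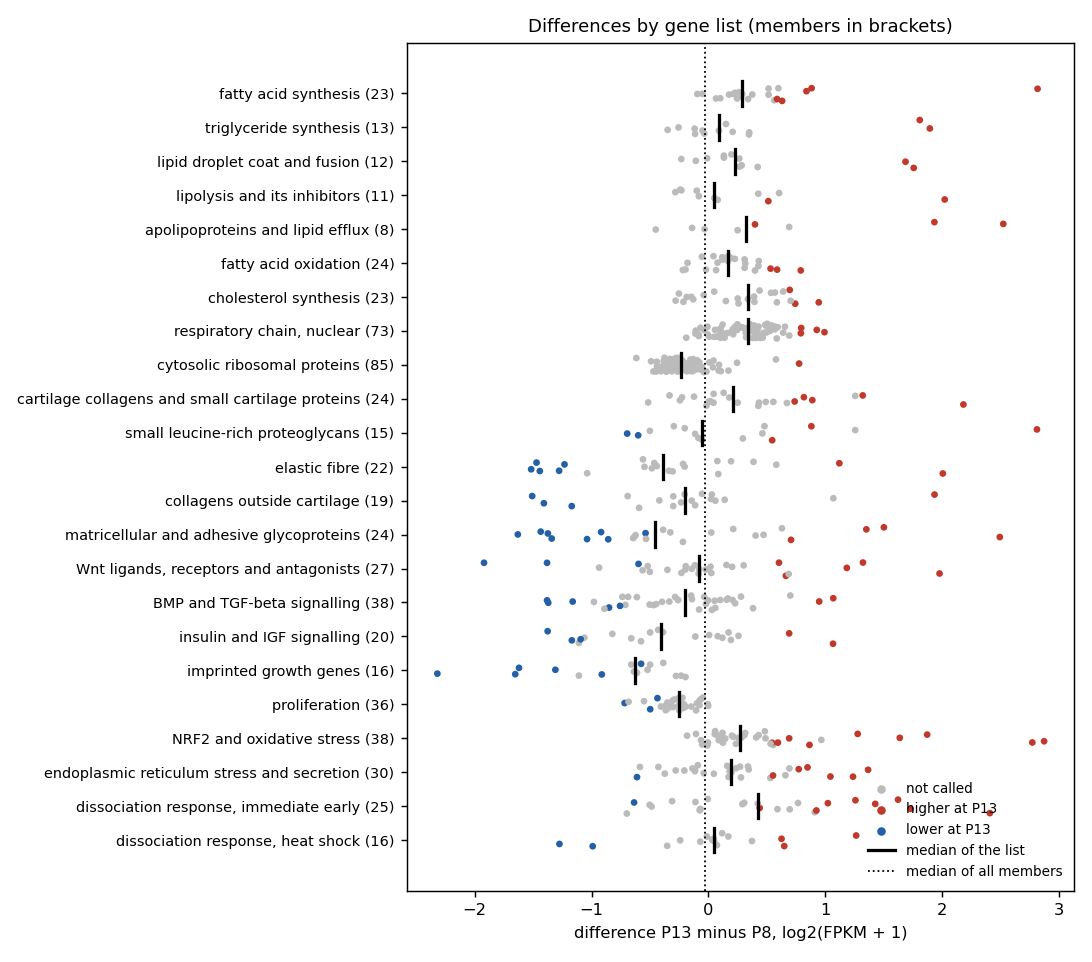
Difference P13 minus P8 (horizontal axis, log2(FPKM + 1)) of the members of 23 gene lists, 1 row for each list with its number of members in brackets. Red points are called higher, blue points called lower and grey points not called, the short black bar is the median of the list and the dotted line the median of all members at -0.03. The medians run from -0.62 for imprinted growth genes to 0.42 for immediate early genes.

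Among the largest rises outside these lists were genes of diverse function. Lgals3bp, a secreted glycoprotein that binds galectin-3, was at 4.66, 5.09 and 5.27 FPKM at P8 and 29.7, 27.4 and 35.9 at P13 and rose by 2.41 (SE 0.14, adjusted p = 3.32e-07). Ctsh, a lysosomal cathepsin, was at 20.9, 23.8 and 15.5 FPKM at P8 and 88.5, 110 and 113 at P13 and rose by 2.33 (SE 0.17, adjusted p = 1.22e-06). Cdo1, which oxidizes cysteine on the way to taurine, was at 3.18, 4.84 and 4.15 FPKM at P8 and 18.8, 24.3 and 22.8 at P13 and rose by 2.19 (SE 0.24, adjusted p = 6.44e-05). Sat1, which acetylates spermidine and spermine, was at 132, 148 and 151 FPKM at P8 and 490.4, 510.1 and 595 at P13 and rose by 1.88 (SE 0.12, adjusted p = 6.53e-07). Angpt4, a ligand of the Tie2 receptor, was at 5.16, 5.95 and 6.19 FPKM at P8 and 22.4, 26.5 and 26.3 at P13 and rose by 1.95 (SE 0.13, adjusted p = 6.53e-07). Neat1, the long RNA that scaffolds paraspeckles, was at 4.6, 4.51 and 5.57 FPKM at P8 and 20.6, 24.7 and 22.9 at P13 and rose by 2.01 (SE 0.30, adjusted p = 0.000898). Among the falls, Snai1, a repressor of epithelial genes, was at 49.7, 55.5 and 41.2 FPKM at P8 and 19.3, 22.2 and 23.7 at P13 and fell by 1.13 (SE 0.15, adjusted p = 0.000323). Ptn, the growth factor pleiotrophin, was at 261, 295 and 226 FPKM at P8 and 91.3, 118 and 124 at P13 and fell by 1.23 (SE 0.22, adjusted p = 0.00405). The Ptn call was lost at a pseudocount of 0.1 (adjusted p = 0.0651).

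Markers of most other cell types that an ear digest could hold were low. The 14 skeletal muscle markers summed to 6.03 to 8.57 FPKM at P8, 19 to 24.7 at P10 and 24.8 to 39.1 at P13, and none of the 4 that were members was called. Acta1, the actin of skeletal muscle, made up much of this, at 5.55, 3.07 and 2.95 FPKM at P8 and 26.1, 13.2 and 16.5 at P13. Macrophage markers summed to 2.88 to 3.53 FPKM at P8 and 4.42 to 5.45 at P13, with 1 of 12 a member. Endothelial markers summed to 6.89 to 9.51 and 8.36 to 10.2, keratinocyte markers to 5.25 to 7.7 and 4.5 to 6.16, and sebocyte markers to 2.49 to 5.16 and 4.31 to 5.68. Smooth muscle and pericyte markers had a higher sum, at 122 to 139 and 93 to 122. Of the 10 listed, 4 were members and none was called. The smooth muscle genes Myh11, Cnn1 and Tagln were at most 0.15, 0.1 and 0.93 FPKM in the P8 and P13 libraries. No lymphocyte or melanocyte marker was a member, and Cd3e and Mlana were listed at 0 in all 6 libraries. The part of muscle or macrophage RNA in the rises was not tested.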

How the data were processed

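RNA sequencing of 6 sorted lipochondrocyte libraries, 3 at P8 and 3 at P13, was analysed within the 18 libraries of the series. Gene levels are the FPKM values deposited by the authors, 1 column per library. Alignment used STAR 2.4.2a and the mm10 genome, per the submitters' processing notes. Which quantifier and annotation were used is not given in the sources used here. The authors also deposited a table with the count of total reads of each library and its alignment rate in percent. Counting intervals cannot be had from FPKM, and 23986 genes were listed at 0 in all P8 and P13 libraries.

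The 13815 genes that reached 1 FPKM in 3 or more of the 18 libraries were fitted as log2(FPKM + 1), pseudocount 1, with 6 group means in limma 3.58.1 (R 4.3.3) with a mean-variance trend. The P13 minus P8 contrast was tested two-sided, and p adjusted by Benjamini-Hochberg over all 13815. Genes with adjusted p under 0.05 are called, and the 10111 members are reported. Another 24 called genes were not members. Of the members, 74 passed the filter through P8 alone and 50 through P13 alone, and such genes had to differ. Medians of lists are over their members. Coordinates are from GENCODE M21 (GRCm38) and promoter windows from RefSeq. Figures came from Python 3.11.15 and matplotlib 3.10.9.

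The naming rule took 25 called members with the largest rise and 25 with the largest fall, requiring groups that did not overlap, a mean of 10 FPKM or more at the higher stage and a standard symbol. It added at most 6 called genes of each list and 18 genes of interest, 173 in all. Acta1, Cdkn2d, Col10a1, Efemp2, Fos, Gadd45b, Timp3 and Wisp1 fall outside it and were chosen after their values were seen. Members and the 57 lists were chosen with earlier results of these data known. Same-numbered P8 and P13 libraries deviated together, with correlations of 0.208, 0.110 and 0.101 of their deviations from the group means. Different numbers gave -0.138 to 0.023. Deviations within a group offset each other, so these correlations are not independent, and the labels do not say what equal numbers share. The main fit took the libraries as unpaired, and the fit with a replicate block was an alternative. The other alternatives were 2 pseudocounts, 2 filters, median-of-ratios scaling, no trend, fewer libraries modelled, and each library left out.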

Additional observations from a re-analysis of the deposited data

How the results depend on the processing

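The 557 calls (359 higher, 198 lower) ranged from 328 to 487 when each library was left out, with 217 to 328 higher and 111 to 159 lower. With only the P8 and P13 libraries modelled, 298 genes were called (205 higher, 93 lower), of which 250 were among the 557. With no filter on low values 415 were called, with 285 higher and 130 lower. Median-of-ratios scaling gave 734, fitting the members alone 606, no trend 563, a pseudocount of 0.1 530, a pseudocount of 5 502, and the 9 sorted libraries alone 500. The replicate block gave 634 calls (403 higher, 231 lower), of which 532 were among the 557. Among the genes named by the rule, it ended the calls of Rps27l, Ly6a, Dusp6, Zfp467, Sdhd and Crabp2 and changed no other. A replicate block with only P8 and P13 modelled, an alternative chosen after seeing the data, left 2 calls, 1 higher and 1 lower. The cause of these differences was not tested, apart from the fewer libraries that enter each reduced fit. The uncalled differences of Acan and Cebpa changed sign. Leaving out single libraries gave -0.47 to 0.38 for Acan, positive without P8 replicate 3, and -0.08 to 0.93 for Cebpa, negative without P8 replicate 1. Because FPKM carry no depth per gene, low genes cannot be given a counting error.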

Other observations

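Several abundant genes that no list held rose between P8 and P13, and were chosen after their values were seen. Cst3, a secreted inhibitor of cathepsins, was at 830.3, 911 and 595 FPKM at P8 and 2258, 2143 and 2632 at P13 and rose by 1.61 (SE 0.18, adjusted p = 6.05e-05). Cpe, a carboxypeptidase of secretory granules, was at 225, 255 and 199 FPKM at P8 and 476, 593 and 615 at P13 and rose by 1.30 (SE 0.26, adjusted p = 0.00755). Mfge8, a secreted protein that binds phosphatidylserine, was at 683, 823 and 622 FPKM at P8 and 1290.3, 1386 and 1607 at P13 and rose by 1.01 (SE 0.19, adjusted p = 0.00627). In none of these genes did the groups overlap. Lcat, the plasma enzyme that esterifies cholesterol, was at 43.8, 46.6 and 45 FPKM at P8 and 109.8, 106 and 143 at P13 and rose by 1.37 (SE 0.13, adjusted p = 1.59e-05). Aacs, which activates acetoacetate for lipid synthesis, was at 19, 22.3 and 23.8 FPKM at P8 and 54.3, 59.3 and 67.2 at P13 and rose by 1.43 (SE 0.18, adjusted p = 0.00025). Prnp, the prion protein gene, was at 67.9, 78.6 and 69.8 FPKM at P8 and 169, 198 and 199.5 at P13 and rose by 1.38 (SE 0.11, adjusted p = 4.38e-06). These 6 calls were kept without each of the 6 libraries and in each of the 9 other planned settings.

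A few of the greatest differences were in copies of other genes, and their values are uncertain because near-identical sequences share reads. Rps3a2 and Rps3a3, processed pseudogenes of the ribosomal protein gene Rps3a1, were at 697.5 to 704 and 465 to 488 FPKM at P8. At P13 they were at 0 to 1.46 and 0.5 to 1 FPKM. Rps3a1 itself was at 1458 to 1617 at P8 and 1656 to 1926 at P13. The sum of all 3 was 2627 to 2797 FPKM at P8, 2193 to 2563 at P10 and 1657 to 1927 at P13. Eno1b, a copy of the enolase gene Eno1, was at 39.6 to 53 FPKM at P8, 0 to 0.41 at P10 and 104 to 156 at P13, while Eno1 was at 327 to 434, 344 to 426 and 278 to 374. Gm4735 was at 41 to 74.2 at P8, 0 to 0.04 at P10 and 121 to 146 at P13.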
